A study of Homo sapiens with 24 samples.

Results

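The Notch pathway and HES family genes measured here, 9 of the 14119 genes in the table, were followed across tumours grown in mice from COLO320DM, an established cell line of human colorectal adenocarcinoma. They were taken by symbol from a list of 10: the ligands JAG1 and JAG2, the receptors NOTCH1, NOTCH2 and NOTCH3, the DNA-binding factor RBPJ, and the HES factors HES1, HES4 and HES6. The tenth, the ligand DLL1, has no row in the table and was not analysed here. All 9 passed the filter on low values (at least 1 CPM in at least 3 libraries), as did 13832 genes in all. HES1 reached it outside the groups where it was high as well: all 3 shNT libraries without doxycycline or cDNA were above 1 CPM.

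Each tumour carried 1 of 2 hairpins, named shNT and sh1487 in the labels, either alone or together with a cDNA, and the mice received doxycycline in the diet for 72 hr or none. The 8 groups of 3 libraries are therefore shNT without doxycycline, shNT with it, sh1487 without it, sh1487 with it, and the same 4 with the cDNA. What the hairpin labelled sh1487 targets, which cDNA was added, the promoters that drive them and whether each line is 1 clone are not stated in the labels, and neither is whether the 3 libraries of a group are separate tumours. Each p-value therefore measures the spread between these libraries, which may be technical.

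Notch signalling passes between neighbouring cells. A ligand of the Jagged or Delta type on one cell binds a Notch receptor on the next, the receptor is cut by an ADAM protease and then by γ-secretase, and its freed intracellular domain enters the nucleus. There it joins RBPJ, which otherwise holds target genes silent, and turns on genes such as HES1. HES proteins are repressors of the basic helix-loop-helix type. In the mouse intestine Notch signalling keeps crypt cells dividing and away from the secretory fate, in part because Hes1 represses Atoh1. HES6 stands apart in the family, since mouse Hes6 hinders Hes1 and does not carry out its repression.

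The promoters of HES1 and HES4 are shown because these are the members that rose with doxycycline in the sh1487 line without cDNA, and because RBPJ binds DNA at the core TGGGAA. Each window is 60 bases long, ends 56 bases before the RefSeq start of the gene, and is read 5′ to 3′ on the strand of the gene from RefSeq on GRCh38.p14. HES1 lies at chr3:194136033-194136092 on the plus strand and HES4 at chr1:1000153-1000212 on the minus strand. Capitals mark the core.
HES1: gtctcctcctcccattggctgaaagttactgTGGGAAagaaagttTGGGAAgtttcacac
HES4: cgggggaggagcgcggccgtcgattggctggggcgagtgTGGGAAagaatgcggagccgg
The core begins 84 and 70 bases before the HES1 start and 76 bases before the HES4 start, in each case on the strand of the gene. Both windows hold the same run of 12 bases, TGTGGGAAAGAA. The GENCODE v29 transcript of HES4 starts earlier than the RefSeq one, at base 1000172, which is inside the window shown.

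The core was searched on both strands in the 250 bases before each start. It was found in 3 of the 13 RefSeq windows of the 9 members: those of HES1 and HES4 and 1 of RBPJ. Of 35116 such windows in RefSeq, 20.8% held it and 2.90% held it 2 or more times. RBPJ, which fell with doxycycline in sh1487 without cDNA, held it 115 and 72 bases before its start at base 26319746. Of related genes, HEYL, which did not pass the test there, held it 178 and 99 bases before its start. HES7 and NRARP, which fell there, held none. The N box CACNAG, to which HES proteins bind, was in windows of HES1, NOTCH3 and RBPJ and in 32.0% of all windows; HES1 held 3. The TCF/LEF core CTTTGA, the β-catenin partners' site, was in a window of RBPJ and in 11.2% of all windows. A match of this kind is a description of the letters, and no match says only that they are not in this window.

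Recovered reads per library ran from 44004848 to 80202279, so that 3 reads stand at 0.0368 to 0.0711 CPM, a limit that covers counting error only. The series title names β-catenin, and its gene CTNNB1 was read first as a check of the labels: 226 ± 10.4 CPM (SD, n = 3) in sh1487 tumours without doxycycline, 43.3 ± 1.99 with it, and 507 ± 41.3 and 594 ± 21.2 in the same line with cDNA. Its feedback target AXIN2 went from 261 ± 10.7 to 43.4 ± 0.928 CPM without cDNA and from 286, 287 and 289 to 173, 178 and 196 with it, so the cDNA line kept a fall in AXIN2 (log2 change −0.66, limma adjusted p = 6.27e-10). Of 11 epithelial markers 8 have rows; CDX2 was at 986 to 2100 CPM, while EPCAM and CDH1 stayed under 3 CPM, at most 2.92 and 1.23. Neuroendocrine markers (6 of 9 with rows) summed to 14.5 to 19.4 CPM in the shNT lines and 319 to 492 CPM in the sh1487 lines. The third library of shNT with cDNA and doxycycline had the highest share of mitochondrial reads, 21.5%, against a lowest share of 9.98%.

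Per length, RBPJ and JAG2 were the best represented members in most groups and HES1 the least in 6 of the 8. In shNT tumours without doxycycline the levels were 17.1 ± 0.737 CPM per kilobase for RBPJ, 11.6 ± 0.954 for JAG2, 8.52 ± 1.45 for NOTCH2, 6.89 ± 0.548 for JAG1, 5.94 ± 0.565 for HES6, 4.10 ± 0.789 for NOTCH1, 3.52 ± 0.227 for HES4, 2.64 ± 0.286 for NOTCH3 and 0.526 ± 0.0141 for HES1. HES1 there rested on 74 to 85 reads per library. In sh1487 tumours with doxycycline the order changed: HES1 stood at 2.93 ± 0.166 CPM per kilobase, above NOTCH1 (2.73 ± 0.0824) and NOTCH3 (0.529 ± 0.0257).

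**Figure D1:**
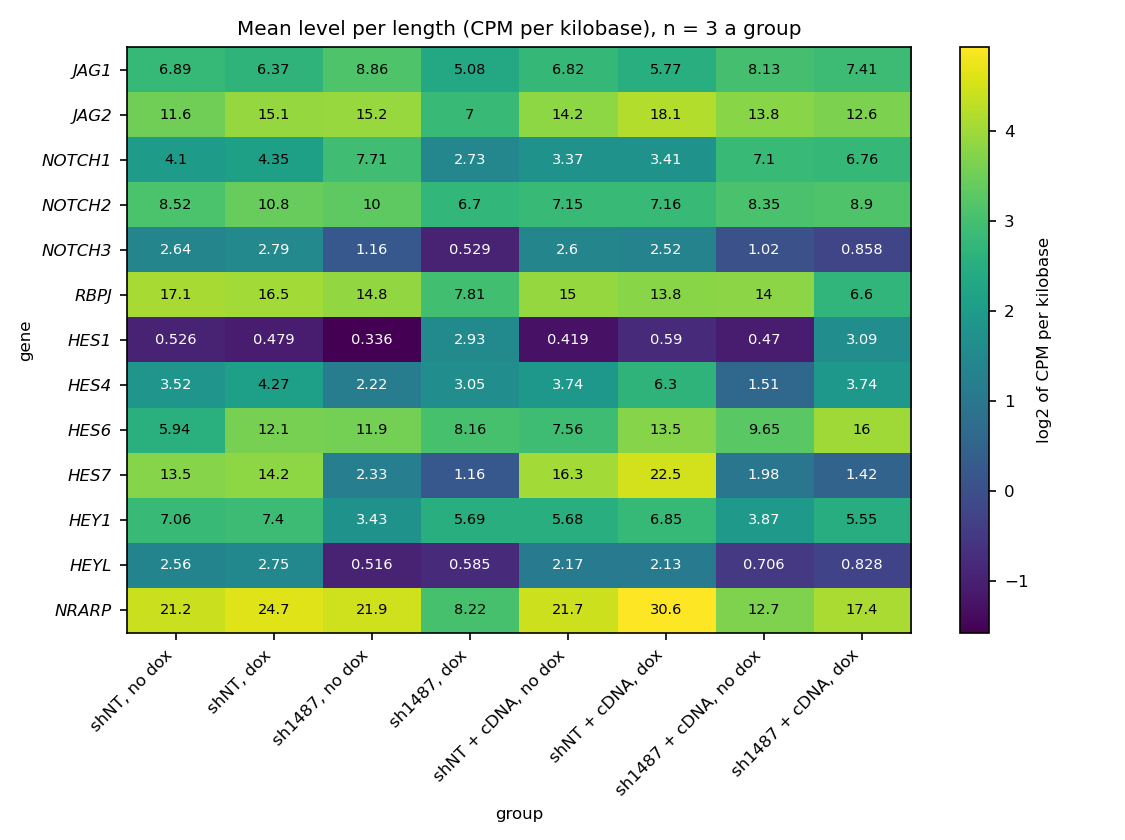
Mean level of the 9 members and of 4 related genes in each group (columns), in CPM per kilobase of gene length as printed in each cell; the colour is its log2. HES1 is at 2.93 and 3.09 in the sh1487 tumours with doxycycline and at 0.336 to 0.590 in the other groups.

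The 9 genes lie on 8 chromosomes of GRCh38 in GENCODE v29: HES4 (1, 998962 to 1000172) and NOTCH2 (1, 119911553 to 120069626), HES6 (2, 238238267 to 238240662), HES1 (3, 194136145 to 194138732), RBPJ (4, 26163455 to 26435131), NOTCH1 (9, 136494433 to 136545786), JAG2 (14, 105140981 to 105168824), NOTCH3 (19, 15159038 to 15200981) and JAG1 (20, 10637684 to 10673999). HES1 and RBPJ are on the plus strand and the others on the minus strand. NOTCH2 shares near-identical sequence with NOTCH2NL, and RBPJ has pseudogenes, so their counts are less certain. NOTCH1, JAG1 and HES6 overlap genes on the other strand that have no row in the table, and whether strand was used in counting is not stated.

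The first comparison set sh1487 tumours on doxycycline against those off it, without cDNA. HES1 rose to more than 8 times its level and HES4 rose less, while both Jagged ligands, all 3 receptors, RBPJ and HES6 fell. All 9 members passed the test (limma on log2(CPM + 1) over all 24 libraries, adjusted p under 0.05), 2 upward and 7 downward. Of all 13832 genes 75.0% passed in this comparison, 37.4% upward and 37.5% downward, so that passing is the rule and the sizes and directions carry the description. The median log2 change was −0.79 over the 9 members and 0.01 over all genes. Summed cell type markers moved in the same comparison: neuroendocrine ones from 354 to 372 CPM to 476 to 492 CPM, and epithelial ones from 2030 to 2330 CPM to 1540 to 1620 CPM. CDX2, at 986 to 2100 CPM over all libraries, made up most of the epithelial sum, and KRT8 reached at most 446 CPM. That sum therefore leans on few genes. What part the markers had in the members' changes was not tested. In bulk tumour RNA, fewer cells of a type and less RNA per cell cannot be told apart.

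HES1, the best-known Notch target of the family, was at 0.604, 0.687 and 0.788 CPM in the 3 sh1487 libraries without doxycycline and at 5.83, 5.86 and 6.44 CPM with it. The groups are far apart and the spread within each is small. The ratio of the means was 8.72 and the log2 change 2.06 ± 0.08 (SE, limma adjusted p = 2.55e-16); on recovered reads, which the added 1 CPM does not shrink, edgeR gave 3.13. HES4, a further HES repressor, went from 2.26, 2.57 and 2.61 CPM to 3.23, 3.24 and 3.75 CPM. These groups did not overlap, and the log2 change was 0.34 ± 0.11 (limma adjusted p = 0.0108), a call that was lost without the second library with doxycycline (log2 change 0.29, adjusted p = 0.0540). HES6 went from 23.4, 23.8 and 25.4 CPM to 16.1, 16.4 and 17.4 CPM, lower in every library (log2 change −0.51 ± 0.11, limma adjusted p = 3.09e-04).

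Of the ligands, JAG1 fell from 72.4, 74.0 and 80.5 CPM to 42.8, 43.1 and 44.2 CPM, a ratio of 0.573 (log2 change −0.79 ± 0.08, limma adjusted p = 2.11e-08). JAG2 fell from 94.1, 94.7 and 103 CPM to 43.8, 43.8 and 46.6 CPM, a ratio of 0.460 (log2 change −1.10 ± 0.10, limma adjusted p = 8.71e-10). The 6 treated values of the ligands sit closer together than the untreated ones, and no library of one group reached the other.

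Of the receptors, NOTCH1 fell most, from 69.9, 70.9 and 87.7 CPM to 26.3, 26.7 and 27.9 CPM (ratio 0.354, log2 change −1.46 ± 0.15, limma adjusted p = 1.24e-08). NOTCH3 fell from 10, 10.1 and 12.6 CPM to 4.77, 4.91 and 5.24 CPM (log2 change −0.99 ± 0.12, limma adjusted p = 7.82e-08). NOTCH2 fell from 160, 163 and 181 CPM to 104, 114 and 120 CPM (log2 change −0.57 ± 0.20, limma adjusted p = 0.0115), and this call was lost when library size alone set the scale (−0.45, adjusted p = 0.0716), a scale that moved the median of all genes to 0.11. NOTCH2NL, the partial copy of NOTCH2, moved the same way (log2 change −0.81 ± 0.19). RBPJ fell from 132, 136 and 142 CPM to 69.0, 73.8 and 74.0 CPM (ratio 0.529, log2 change −0.91 ± 0.09, limma adjusted p = 2.96e-09), with no overlap between the groups.

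**Figure D2:**
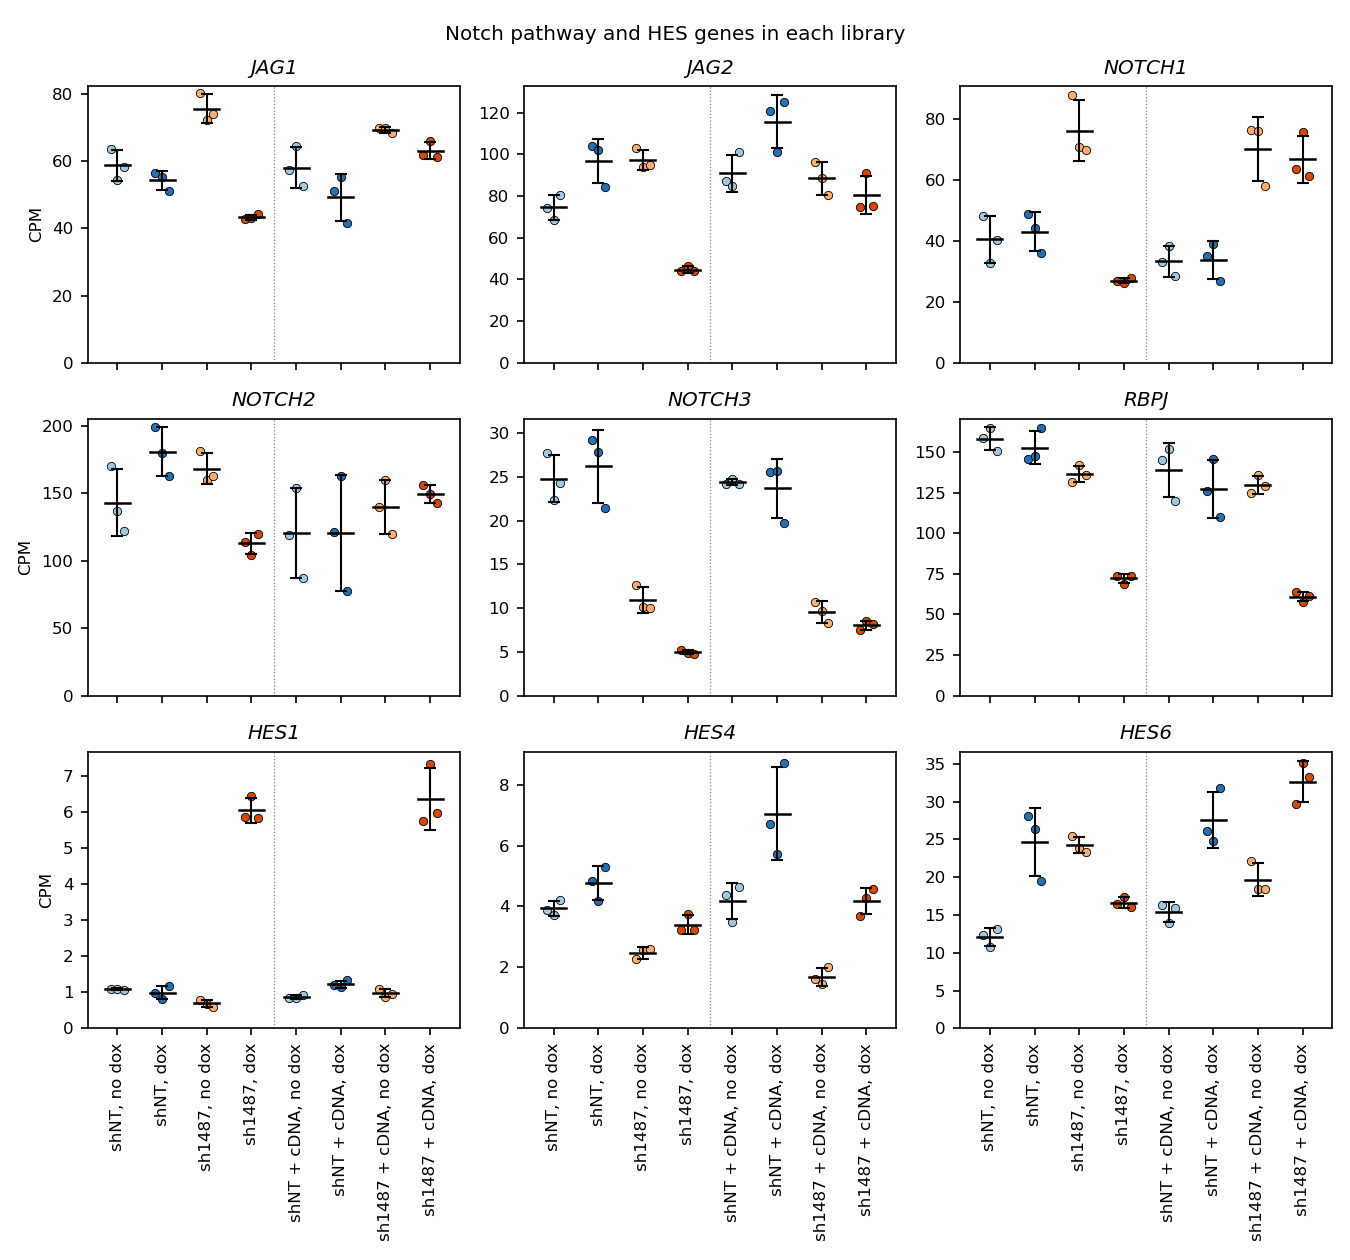
CPM of each of the 9 genes in every library (points), with the mean (bar) and SD (whiskers) of the 3 libraries of each of 8 groups along the x axis; the y axis starts at 0 and differs between panels, and a dotted line separates the lines with cDNA. HES1 is high and RBPJ low in both sh1487 groups with doxycycline, while NOTCH3, JAG1 and JAG2 have their lowest mean in the one without cDNA.

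With the cDNA, doxycycline in the sh1487 line gave another picture. HES1, HES4 and HES6 rose, RBPJ fell, and the ligands and receptors did not pass: 4 of 9 members passed, against 59.6% of all genes. HES1 went from 0.874, 0.946 and 1.09 CPM to 5.76, 5.98 and 7.34 CPM (log2 change 1.90 ± 0.08, limma adjusted p = 1.10e-14). RBPJ went from 125, 129 and 136 CPM to 57.9, 61.3 and 64.0 CPM (log2 change −1.08 ± 0.09, limma adjusted p = 7.74e-10). For both genes the treated and untreated libraries were again well apart.

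HES6 rose from 18.4, 18.4 and 22.2 CPM to 29.7, 33.2 and 35.1 CPM (log2 change 0.71 ± 0.11, limma adjusted p = 1.43e-05), the opposite direction to the line without cDNA. HES4 rose from 1.45, 1.61 and 2.01 CPM to 3.70, 4.27 and 4.56 CPM (log2 change 0.95 ± 0.11, limma adjusted p = 3.62e-07). NOTCH1 was at 58.0, 76.0 and 76.4 CPM without and 61.2, 63.4 and 75.6 CPM with doxycycline, groups that overlap (log2 change −0.07, 95% interval −0.38 to 0.25). JAG1 was at 68.4, 69.8 and 70.0 CPM and at 61.4, 62.0 and 66.2 CPM, which do not overlap but did not pass (log2 change −0.13, interval −0.31 to 0.04). The log2 changes of JAG2 (−0.14), NOTCH2 (0.10) and NOTCH3 (−0.22) did not pass either; NOTCH3 passed in 3 of 17 alternatives (−0.14 to −0.31 over all of them).

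The difference between these effects, sh1487 without cDNA minus sh1487 with it, was tested directly. It passed for 7 members, all negative, against 60.1% of all genes, 32.9% upward and 27.2% downward. The 7 were NOTCH1 (−1.39 ± 0.22, limma adjusted p = 8.79e-06), HES6 (−1.22 ± 0.16, 9.41e-07), JAG2 (−0.96 ± 0.14, 3.44e-06), NOTCH3 (−0.77 ± 0.16, 3.45e-04), NOTCH2 (−0.67 ± 0.28, 0.0403), JAG1 (−0.65 ± 0.12, 7.17e-05) and HES4 (−0.61 ± 0.16, 0.00281). The NOTCH2 difference was lost in 10 of 23 alternatives, 9 of which left out 1 library (−0.57 to −0.71). It did not pass for HES1 (0.16, 95% interval −0.07 to 0.39, limma adjusted p = 0.224) or RBPJ (0.17, interval −0.09 to 0.42, 0.248). These intervals still allow part of either effect to differ: for HES1 the difference passed at 0.25 without the second library of sh1487 with cDNA and doxycycline, which holds the value of 7.34 CPM, and for RBPJ it passed in a fit of those 4 groups alone (adjusted p = 0.0466).

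**Figure D3:**
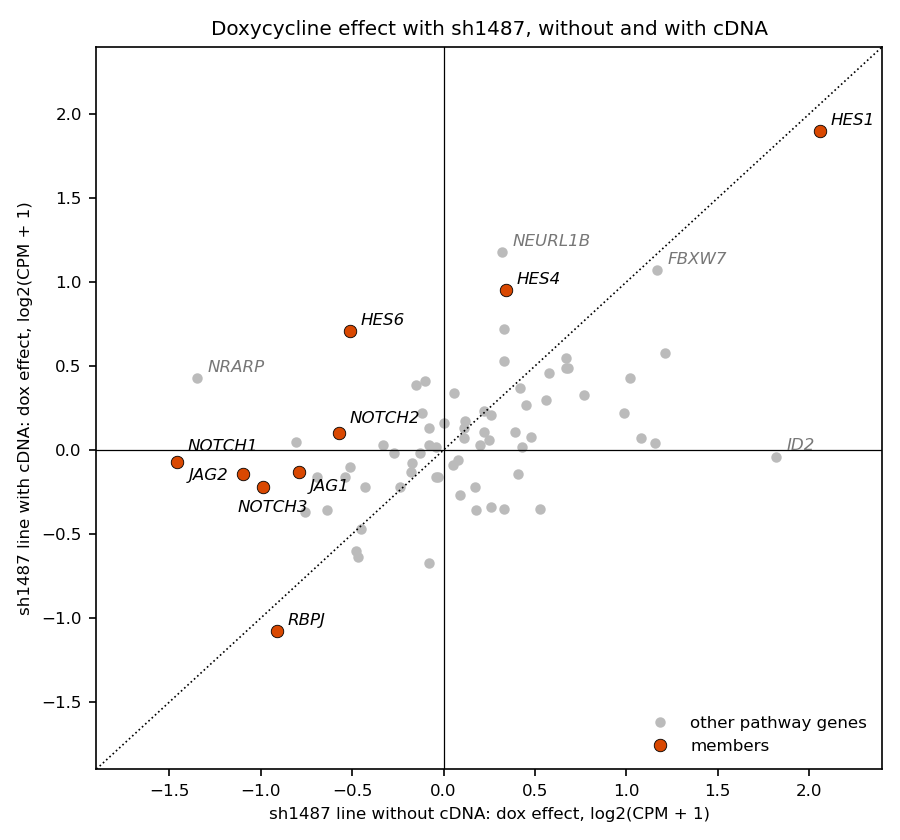
Doxycycline effect in the sh1487 line with cDNA (y axis) against the line without cDNA (x axis), both as differences in log2(CPM + 1), for the 9 members (orange, named) and 66 other pathway genes (grey); the dotted line marks equal effects. HES1 (2.06 and 1.90) and RBPJ (−0.91 and −1.08) lie near that line, NOTCH1, JAG1 and JAG2 near an effect of 0 with cDNA, and HES6 (−0.51 and 0.71) has opposite signs.

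The shNT line shows what doxycycline came with in tumours that carry the other hairpin. Without cDNA, HES6 and JAG2 rose, 2 of 9 members against 37.2% of all genes. HES6 went from 10.8, 12.3 and 13.1 CPM to 19.5, 26.4 and 28.1 CPM, a ratio of 2.04 (log2 change 0.96 ± 0.11, limma adjusted p = 1.10e-06). JAG2 went from 68.5, 74.3 and 80.7 CPM to 84.4, 102 and 104 CPM (log2 change 0.37 ± 0.10, limma adjusted p = 0.00521). HES1 was at 1.05, 1.10 and 1.10 CPM without and 0.806, 0.981 and 1.18 CPM with doxycycline, which overlap, and RBPJ at 151, 159 and 165 CPM against 146, 148 and 165 CPM. NOTCH1, NOTCH2, NOTCH3, JAG1 and HES4 did not pass, at log2 changes of 0.09, 0.34, 0.07, −0.11 and 0.22.

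With cDNA, doxycycline in the shNT line came with higher HES6 (13.9, 15.9 and 16.3 CPM to 24.8, 26.1 and 31.8 CPM, log2 change 0.80 ± 0.11, limma adjusted p = 2.72e-05), as it did without cDNA. In all 5 of 9 members passed, against 31.9% of all genes: HES4 (0.63 ± 0.11), JAG2 (0.34 ± 0.10) and HES1 (0.25 ± 0.08) upward and JAG1 (−0.24 ± 0.08) downward. HES1 there went from 0.830, 0.839 and 0.921 CPM to 1.14, 1.19 and 1.33 CPM, still far under the sh1487 tumours with doxycycline. In a fit of these 6 libraries alone, only HES6 passed. Libraries numbered 2 and 3 deviated together there (residual r of 0.82 and 0.84), those numbered 1 not (0.02). With the replicate number as a block within these 6 libraries, added after seeing the data, HES1, HES4, HES6, JAG1 and JAG2 all passed. Without the third library with doxycycline, the one with 21.5% mitochondrial reads, HES6 and HES4 passed; without the second library lacking it, the same pair of genes did, and without the first lacking it those and JAG2.

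**Figure D4:**
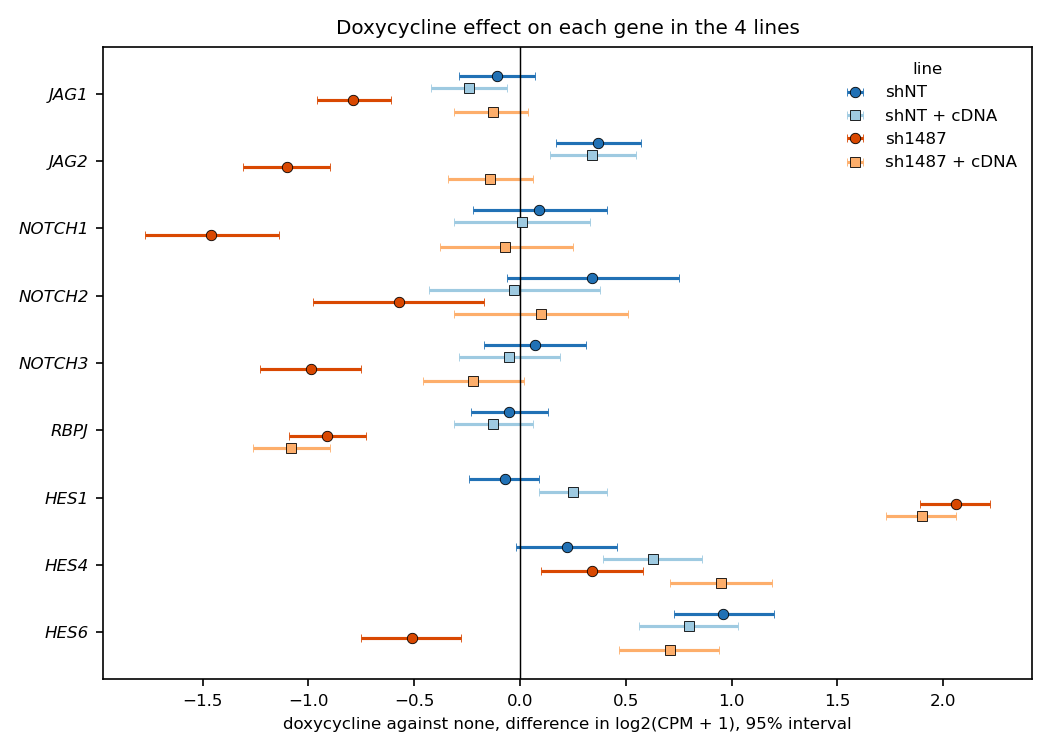
Doxycycline against none in each of the 4 lines, as the difference in log2(CPM + 1) with its 95% interval (x axis), for each gene (y axis). HES1 is at 2.06 and 1.90 in the sh1487 lines and at −0.07 and 0.25 in the shNT lines; HES6 is positive in every line but sh1487 without cDNA.

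The doxycycline effects of the 2 hairpins were then set against each other. Without cDNA, 8 of 9 members differed, against 70.6% of all genes, 36.2% upward and 34.4% downward. HES1 differed upward (2.13 ± 0.11, limma adjusted p = 1.34e-13), and NOTCH1 (−1.55 ± 0.22), HES6 (−1.47 ± 0.16), JAG2 (−1.47 ± 0.14), NOTCH3 (−1.06 ± 0.16), NOTCH2 (−0.92 ± 0.28), RBPJ (−0.86 ± 0.12) and JAG1 (−0.68 ± 0.12) downward. The difference for HES4 was 0.12 with an interval from −0.22 to 0.46. With cDNA, 3 members differed, against 46.9% of all genes: HES1 (1.65 ± 0.11, limma adjusted p = 1.50e-10), RBPJ (−0.95 ± 0.12, 2.35e-06) and JAG2 (−0.48 ± 0.14, 0.00719). HES4 did not pass there (0.32, interval −0.02 to 0.66) and did in 7 of 23 alternatives, edgeR on recovered reads among them. HES6 rose in both lines with cDNA, and its difference was −0.09 (interval −0.42 to 0.24).

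These comparisons use some of the same libraries, and the values of each stand side by side and are no independent support for one another.

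Without doxycycline the sh1487 and shNT lines already differed in 8 of 9 members, against 66.2% of all genes. NOTCH1 was at 69.9 to 87.7 CPM in sh1487 and 32.7, 40.4 and 48.3 CPM in shNT (log2 change 0.90 ± 0.15, limma adjusted p = 2.02e-05). HES6 (0.95 ± 0.11), JAG2 (0.38 ± 0.10) and JAG1 (0.36 ± 0.08) were higher in sh1487 too. NOTCH3 was lower there, since its shNT libraries held 22.4, 24.3 and 27.7 CPM (log2 change −1.11 ± 0.12, limma adjusted p = 2.22e-08), and so were HES4 (−0.51 ± 0.11), HES1 (−0.30 ± 0.08) and RBPJ (−0.21 ± 0.09). The RBPJ call was lost in 5 of 17 alternatives. NOTCH2 did not pass (0.24, interval −0.16 to 0.65).

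The 3 receptors and both ligands had their lowest mean of the 8 groups in sh1487 with doxycycline and no cDNA, among them NOTCH1 at 26.3 to 27.9 CPM, NOTCH3 at 4.97 ± 0.241 CPM, JAG1 at 43.4 ± 0.738 CPM and JAG2 at 44.7 ± 1.58 CPM. For NOTCH3 and JAG2 every library of that group was under every other library. For NOTCH1 and JAG1 it overlapped shNT with cDNA and doxycycline, whose lowest libraries held 26.8 and 41.5 CPM, and for NOTCH2 it overlapped both shNT groups with cDNA. The share of all genes with their lowest mean, or without overlap, in that group was not counted. Of all 13832 genes 37.5% fell with doxycycline in sh1487 without cDNA. These ranks therefore describe the members and do not set them apart. RBPJ was lowest in sh1487 with cDNA and doxycycline (61.1 ± 3.05 CPM) and next in sh1487 with doxycycline (72.3 ± 2.82), and these did not overlap. HES1 was highest in the same pair of groups (6.36 ± 0.858 and 6.04 ± 0.341 CPM), which did overlap. HES6 was lowest in shNT without doxycycline (12.1 ± 1.15 CPM) and highest in sh1487 with cDNA and doxycycline (32.7 ± 2.76).

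The cDNA by itself, without doxycycline, went with small differences. In the shNT line no member passed in limma, against 5.46% of all genes, and edgeR called none. An unadjusted limma p under 0.05 was found for 3 members and for 3230 of all 13832 genes. The 3 were JAG2, HES6 and RBPJ, at log2 changes of 0.28, 0.33 and −0.20. Residuals of same-numbered libraries of these groups correlated at 0.11, 0.16 and 0.65. With the replicate number as a block within these 6 libraries, added after seeing the data, HES6 (limma adjusted p = 0.0237) and JAG2 (0.0193) passed. That block also took the genes called from 755 to 1512. In the sh1487 line 2 members passed, against 23.7% of all genes: HES1 was higher (log2 change 0.22 ± 0.08, limma adjusted p = 0.0479) and HES4 lower (−0.38 ± 0.11, 0.0211). Neither call was stable: HES1 lost it without any 1 of the 6 libraries, and HES4 lost it in 4 of those 6 cases.

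The other pathway genes came from a list of 93 symbols in 11 roles, of which 66 have rows and all 66 were tested. With doxycycline in sh1487 without cDNA 28 rose, 13 fell and 25 did not pass, with a median log2 change of 0.12. Since 75.0% of all genes passed in this comparison, 37.4% upward and 37.5% downward, the counts by role below describe the list and set no role apart. The remaining ligands with rows, DLL3 and DLK2, did not pass (−0.03 and −0.08). Of 6 genes that take up bound ligand 4 rose, among them the epsin EPN2 (41.8 ± 2.37 to 66.8 ± 0.712 CPM, log2 change 0.67). Of 13 that modify or cut the receptor 5 rose and 2 fell; FURIN, the protease that cuts the receptor on its way to the surface, rose from 68.7 ± 5.32 to 141 ± 3.92 CPM (log2 change 1.02), PSEN2, a catalytic subunit of γ-secretase, rose by 0.58 on the log2 scale, and POGLUT1, which adds O-glucose to the receptor, fell by 0.45.

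Of 8 coactivators 2 rose and 1 fell, and MAML2, which binds the intracellular domain together with RBPJ, rose from 4.50, 4.67 and 4.83 CPM to 9.82, 11.6 and 11.7 CPM (log2 change 1.08). Of 11 corepressors 6 rose and 1 fell, with NCOR1 at a log2 change of 0.45 and HDAC1 at 0.33. All 6 Groucho family genes passed, 4 upward and 2 downward, where 75.0% of all genes passed: AES, a short member of the family, rose from 97.4, 97.6 and 106 CPM to 227, 233 and 242 CPM (log2 change 1.21), and TLE1, a partner of HES proteins, fell from 94.9 ± 4.69 to 66.1 ± 2.09 CPM (−0.51).

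Of 10 inhibitors 4 rose and 3 fell. NRARP, a feedback inhibitor that Notch itself turns on, was at 36.7, 37.5 and 42.0 CPM without and 13.6, 14.7 and 15.3 CPM on the drug (log2 change −1.35 ± 0.09, limma adjusted p = 2.52e-12). In the same line with cDNA it rose, from 22.0, 22.7 and 22.9 CPM to 29.4, 30.0 and 32.8 CPM (log2 change 0.43 ± 0.09, limma adjusted p = 1.86e-04), and the difference of the effects was −1.78 ± 0.12 (limma adjusted p = 3.96e-11). NRARP thus moved in the opposite direction to HES1 without cDNA, though both are known Notch targets, and in the same direction with it. FBXW7, the subunit of a ubiquitin ligase that marks the intracellular domain for destruction, rose from 37.5 ± 0.803 to 85.6 ± 1.06 CPM without cDNA (log2 change 1.17 ± 0.05) and from 29.8 ± 1.28 to 63.5 ± 2.41 CPM with it (1.07 ± 0.05); the difference did not pass (0.10, limma adjusted p = 0.220). In the shNT line FBXW7 fell by 0.35 on the log2 scale.

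Other HES and HEY factors with rows were HES7, HEY1 and HEYL. HEY1, a further Notch target, rose from 11.1 ± 0.769 to 18.4 ± 0.750 CPM without cDNA (log2 change 0.68 ± 0.07, limma adjusted p = 3.00e-09) and from 12.5 ± 1.45 to 17.9 ± 0.648 CPM with it (0.49 ± 0.07). HES7, known for the somite clock of the mouse, fell from 4.35 ± 0.175 to 2.17 ± 0.141 CPM (−0.76 ± 0.13), and HEYL did not pass (0.12). HES7 and HEYL had much higher levels in the shNT line, 25.3 ± 2.07 and 9.39 ± 1.55 CPM without doxycycline against 4.35 ± 0.175 and 1.89 ± 0.156 CPM in sh1487.

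Of 3 proneural and secretory-lineage factors with rows 2 fell and none rose. ATOH1, the factor of secretory cells that Hes1 represses in the mouse gut, was low throughout: 2.14, 2.41 and 2.68 CPM without and 0.937, 1.00 and 1.42 CPM on the drug, a log2 change of −0.69 ± 0.12 (limma adjusted p = 1.31e-05). With cDNA it was at 2.64 to 2.93 CPM and 2.24 to 2.55 CPM, which did not pass (−0.16), while HES1 rose there, and the difference of the ATOH1 effects was −0.53 ± 0.16 (limma adjusted p = 0.00808). In the shNT lines ATOH1 rose with doxycycline, by 0.48 on the log2 scale without cDNA and 0.62 with it. The sh1487 effect minus the shNT effect passed in both cases. It was −1.17 without cDNA and −0.79 with it (limma adjusted p = 1.42e-06 and 5.02e-04). Of the ID proteins, which bind basic helix-loop-helix factors and keep them off DNA, ID2 rose from 11.7 ± 0.677 to 43.6 ± 0.347 CPM (log2 change 1.82 ± 0.10) and ID1 from 2.77 ± 0.275 to 7.38 ± 0.155 CPM (1.16 ± 0.10). With cDNA the log2 changes of ID2 and ID1 were −0.04 and 0.04, which did not pass. ID3, the other ID gene with a row, did not pass without cDNA (−0.13, limma adjusted p = 0.196) or with it (−0.02).

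**Figure D5:**
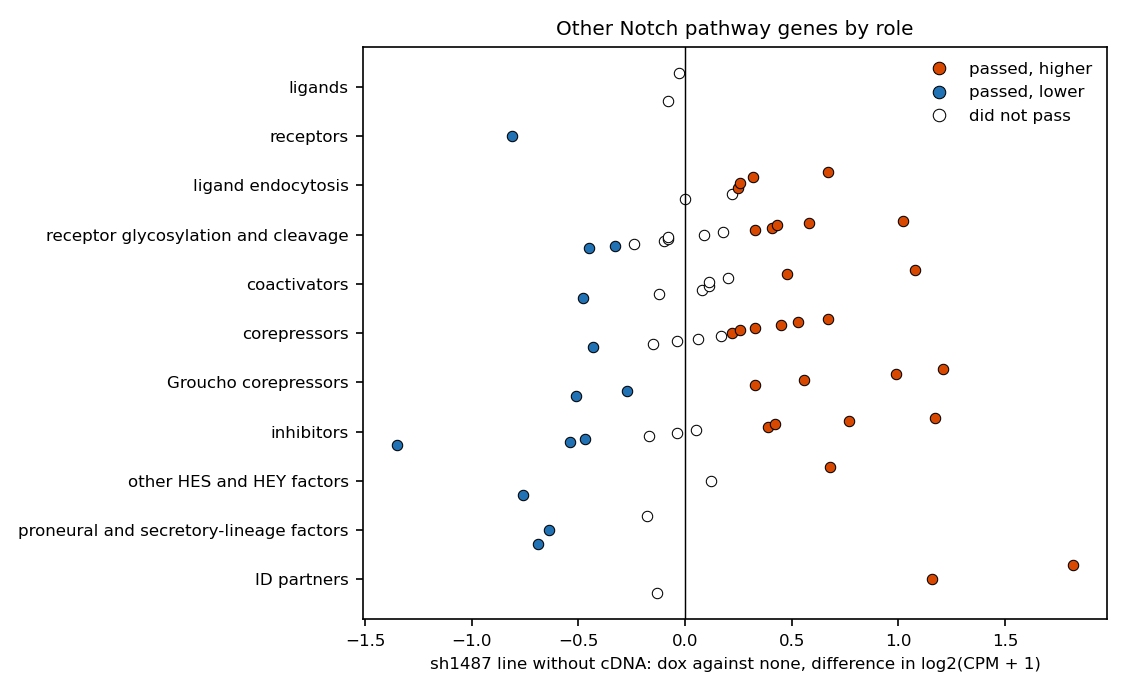
Doxycycline against none in the sh1487 line without cDNA, as the difference in log2(CPM + 1) (x axis), for the 66 other pathway genes by role (y axis; points are spread vertically for sight). NRARP is the inhibitor at −1.35, FBXW7 the inhibitor at 1.17 and ID2 the ID protein at 1.82.

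The 66 genes were counted in the other comparisons in the same way. With cDNA in the sh1487 line doxycycline came with 19 higher and 12 lower, where 59.6% of all genes passed. In the shNT line it came with 7 higher and 13 lower without cDNA (37.2% of all genes) and with 12 and 13 with it (31.9%). The effect in sh1487 without cDNA minus that with it passed upward for 17 and downward for 13 (60.1%). NCSTN, a γ-secretase subunit, fell by 0.57 on the log2 scale with doxycycline in the shNT line without cDNA, by 0.28 in the shNT line with cDNA and by 0.35 in the sh1487 line with cDNA, and rose by 0.33 in sh1487 without it. Between the lines without doxycycline 12 were higher and 32 lower in sh1487, where 66.2% of all genes passed; DTX3 of the Deltex family was at 11.4 to 13.2 CPM in shNT and 0.127 to 0.251 CPM in sh1487, TLE2 at 41.5 to 49.3 and 7.25 to 9 CPM, and NEURL1, a ligase for the ligands, at 1.29 ± 0.259 and 4.71 ± 0.442 CPM.

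Likeness of pattern was measured as Pearson's r of the 8 group means of log2(CPM + 1), among 11351 genes, as a description over groups that share libraries' scale and depth. The genes nearest to HES1 were RND2 (r = 0.985), TWF1 (0.974) and LSM14B (0.966), and the most opposite were RPS6KB1 (−0.989), CACNA1B (−0.986) and ITGA8 (−0.983); all 6 values rest on the 2 groups where HES1 was high. RND2, for example, was at 29.2 and 22.8 CPM in those groups and at 7.07 to 8.37 CPM elsewhere. Nearest to HES6 were PSMA5 (0.984), CYC1 and HNRNPAB (both 0.977), and opposite PRKAB1, CREBRF (both −0.984) and NCSTN (−0.983). Nearest to JAG1 were RIF1, P4HA1 (both 0.980) and GNAL (0.976), and opposite LGI3, FAM234A and FAM89B (all −0.975). Among the members, HES1 and RBPJ had r = −0.96 and NOTCH1 and JAG1 0.91, while HES1 had −0.16 with NOTCH1 and 0.10 with HES4.

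Markers of other cells that also use this pathway were read beside these results. Of 11 endothelial markers 3 have rows, and their sum was 92.5 to 104 CPM in sh1487 without doxycycline and 14.9 to 15.4 CPM with it, and 88.3 to 92.8 CPM and 65.3 to 66.8 CPM with cDNA; ERG, at 14.0 to 106 CPM over all libraries, made up most of it, while CLDN5 stayed at 0.0669 to 1.33 CPM and ESAM at 0.731 to 8.64 CPM. In the shNT line without cDNA the sum went from 104 to 115 CPM without doxycycline to 88.2 to 93.8 CPM with it. The part of these markers in the members' changes was not tested. In sh1487 with cDNA the neuroendocrine sum went from 319 to 346 CPM to 374 to 376 CPM with doxycycline and the epithelial sum from 1910 to 2230 CPM to 1590 to 1780 CPM. Most of the epithelial sum was CDX2 here too. Fibroblast and mural markers (9 of 13 with rows) summed to 77.4 to 80.7 CPM without and 73.1 to 78.2 CPM with doxycycline in sh1487 without cDNA, and leukocyte markers (3 of 10) to 44.2 to 48.4 CPM and 47.5 to 49.2 CPM. Absorptive markers (6 of 9) went from 13.8 to 14.7 CPM to 61.1 to 63.3 CPM with doxycycline in sh1487 without cDNA. With cDNA their sum went from 12.3 to 14.6 CPM to 15.9 to 17.2 CPM. Their highest values over all libraries were KRT20 52.5, FABP2 30.5, CA2 15.9, SI 7.31, VIL1 1.61 and ALPI 1.10 CPM, so the sum leans on few genes. The 2 secretory markers of 7 with rows, FCGBP and ATOH1, went from 2.76 to 3.11 CPM to 1.75 to 2.51 CPM without cDNA. The mouse host carries these genes too; only the human build is named in the sources used here, and how many reads came from host cells was not measured.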

How the data were processed

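Poly(A) RNA of 24 xenograft tumour libraries was sequenced after a stranded TruSeq preparation, per the labels' protocols. The submitters' processing notes name GRCh38, edgeR 4.0.2, Subread 2.4.2, STAR 2.7.7a, featureCounts and Trimmomatic 0.39, without role or order. The deposited table holds a normalised signal, CPM scaled to an effective library size; divided by what 1 read is worth, 100% of values came out whole within 0.001, and these recovered reads served the count tests.

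Genes that reached 1 CPM in 3 or more libraries were fitted as log2(CPM + 1) with 8 group means in limma 3.58.1 (trend, R 4.3.3); p was adjusted by the Benjamini-Hochberg method over 13832 genes and called under 0.05, in 10 comparisons. The added 1 shrinks the change of low genes such as HES1. Alternatives were edgeR 4.0.16 and DESeq2 1.42.0 on recovered reads, other scalings, pseudocounts of 0.1 and 5, filters, only the groups compared, a replicate block and each library left out. Leaving out replicate 3 of both shNT groups with cDNA and the block within only the groups compared were added after seeing the data. The fit was tested on simulated data.

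Members, pathway list and markers were chosen with earlier results of these data known. Named are all members, CTNNB1, AXIN2, and by role the pathway genes of smallest p, up to 4 for doxycycline with sh1487 and 2 elsewhere, and the 3 genes most and least like HES1, HES6 and JAG1. HEYL, DLL3, DLK2 and a few values of named genes in further comparisons complete their roles; 1 gene that the rule names is not reported here. Residuals of same-numbered libraries correlated at 0.11, 0.16 and 0.65 for the shNT groups without doxycycline, with and without cDNA, and not all above 0.1 elsewhere. For doxycycline in shNT with cDNA they correlated at 0.02, 0.82 and 0.84. Positions are from GENCODE v29, which holds 14106 of the 14119 gene IDs; promoters are from RefSeq, GRCh38.p14.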

Additional observations from a re-analysis of the deposited data

Results flagged for a closer look

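Each value here is a difference between 2 doxycycline effects that passed its own test (limma, adjusted p under 0.05), as a log2 value with 3 libraries a group. Between sh1487 and shNT without cDNA it was 2.13 for HES1, −1.47 for HES6, −1.55 for NOTCH1, −0.92 for NOTCH2, −1.06 for NOTCH3, −0.68 for JAG1, −1.47 for JAG2 and −0.86 for RBPJ. For JAG2 and HES6 the effects themselves had opposite signs, down in sh1487 and up in shNT. Between the hairpins with cDNA it was 1.65 for HES1, −0.48 for JAG2 and −0.95 for RBPJ. Between sh1487 without and with cDNA it was −0.61 for HES4, −1.22 for HES6, −1.39 for NOTCH1, −0.67 for NOTCH2, −0.77 for NOTCH3, −0.65 for JAG1 and −0.96 for JAG2. HES1 and RBPJ differed between the hairpins with and without cDNA, and are the only members that did not pass between sh1487 without and with cDNA. The cause of none of these differences was tested.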

How the results depend on the processing

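Over 90 member results and 1699 alternatives, 1623 kept their side of the threshold, 48 lost a call, 28 gained one and none reversed a called direction; 33 results with no call in either changed sign. The number of members called for doxycycline in sh1487 with cDNA was 4, and 2 when the mean had to reach 5 CPM, a filter that leaves HES1 and HES4 untested. For doxycycline in shNT with cDNA it was 5, and 3 with that filter, 1 with only the groups compared, 3 without replicate 3 of both shNT groups with cDNA (chosen after seeing the data), and 2 to 6 when each library was left out. For the cDNA in sh1487 without doxycycline it was 2, and 1 with DESeq2 size factors, 0 with a pseudocount of 5, 0 with that filter, 1 with the replicate block, 4 with only the groups compared, 5 with a replicate block within them, and 0 to 1 when each library was left out. For the cDNA in shNT it was 0, and 2 with the replicate block within only the groups compared. The block over all libraries changed no other count of members by over 1.5 times. The count of genes called for doxycycline in shNT with cDNA was 4406, 547 with only the groups compared and 2571 without its second library lacking doxycycline. For the cDNA it was 755 in shNT, and 62 with only the groups compared, 1512 with the block within them 1214 by DESeq2, and 231, 454 and 216 without the first or second shNT library or the third with cDNA; in sh1487 it was 3273, and 5093 with only the groups compared, 5899 with the block within them and 2173 without the first sh1487 library. For doxycycline in shNT with cDNA, libraries numbered 2 and 3 deviated together (residual r of 0.82 and 0.84), those numbered 1 not (0.02). Apart from the cDNA in shNT, no comparison of 2 groups had all its same-numbered libraries correlated above 0.1. The depth limits HES1 most, with 36 to 85 reads per library in the groups where it was low. The causes of these shifts were not tested, apart from the genes a filter leaves out.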
